A study of Mus musculus with 6 samples.

Results

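In newborn mouse lens, 10 genes were followed, chosen by gene symbol because they encode parts of the Notch signaling pathway: the ligands Jag1, Jag2 and Dll1, the receptors Notch1, Notch2 and Notch3, the receptor-modifying enzyme Lfng, the DNA-binding protein Rbpj, and the target genes Hes1 and Hey1. All 10 were in the table of 13931 genes, and 9 of them had a mean above 1 on the log2 scale of read counts scaled to library size (log2 CPM), the level above which a gene could be called changed. Whole lenses at postnatal day 0 (P0) were compared between 3 control and 3 Celf1cKO samples by RNA-sequencing, to ask which transcripts depend on the RNA-binding protein Celf1. Celf1cKO mice carried a germline knockout allele, Celf1lacZKI, and a conditional allele whose exon 5 was floxed, which was removed by the lens-directed transgene Pax6GFPCre, a Cre driven by Pax6 regulatory sequence. Control samples carried the labelled genotype Celf1lacZKI/+, so they too had a germline knockout allele by that label, while the methods of the study name animals with the floxed allele and without Cre as the controls unless stated otherwise, and which of these the sequenced controls were could not be settled here. All mice were on a mixed C57BL/6J and FVB background. A pair of lenses was pooled for each sample, so p-values measure the spread between these pools.

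In Notch signaling, a ligand on one cell binds a Notch receptor on its neighbor, the receptor is cut, and its freed intracellular part enters the nucleus, where it joins Rbpj and turns on genes such as those of the Hes and Hey families. In the lens, Jag1 and Notch signaling are known for keeping epithelial progenitor cells growing and for secondary fiber cell differentiation. Celf1 binds GU-rich elements in RNA and is known to act on splicing, translation and decay of messages.

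Libraries differed little in depth, with 40694454 to 44387151 reads assigned to genes, so among the 10 genes counting error was small except for Dll1. Celf1 itself stood at 9.95, 9.94 and 9.34 log2 CPM in control replicates 1, 2 and 3 and at 8.93, 7.66 and 7.83 in Celf1cKO replicates 1, 2 and 3. It was reduced by the test (log2 fold-change -1.60, SE 0.335, limma adjusted p = 0.0269, and 0.0560 to 0.108 without any single library other than Celf1cKO replicate 1), and Celf1cKO replicate 1 kept the highest level of its group. Lens markers were abundant in every library, with a summed level of 7 marker genes between 287985 and 329944 CPM in controls and between 232078 and 245372 CPM in Celf1cKO lenses.

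Because Celf1 binds GU-rich RNA, the 3′ UTRs of the 10 genes were searched on the transcript strand for the GU-rich word TGTTTGTT, counting overlapping matches. The sites are shown with 30 bases each, 5′ to 3′ on the strand of the gene, with the word in capitals (mouse genome GRCm38, GENCODE M21 transcript with the longest 3′ UTR).
Jag1, chr2:137081545-137081574, - strand: gagatacttggTGTTTGTTctattagtgtt
Jag2, chr12:112908560-112908589, - strand: aaatcgtataaTGTTTGTTaccacaggccg
Notch2, chr3:98149074-98149103, + strand: ccacctgggggTGTTTGTTttatgggtttt
Rbpj, chr5:53655953-53655982, + strand: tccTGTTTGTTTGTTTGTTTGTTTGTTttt
Hey1, chr3:8664210-8664239, - strand: ctttgatccgtTGTTTGTTctgtgcctcat
These 5 genes held the word and the other 5 (Dll1, Notch1, Notch3, Hes1 and Lfng) did not. The Rbpj 3′ UTR of 3742 bases had 7 matches, most of them in the run of repeats shown, and the other 4 genes had 1 match each. Of 12689 genes with a 3′ UTR of at least 100 bases, 16.2% held the word. Longer 3′ UTRs held it more often: among genes whose 3′ UTR was within 20% of the same length, the share was 14.3% for the length of Jag1, 9.92% for Jag2, 10.6% for Hey1, 28.2% for Notch2 and 35.5% for Rbpj. A second GU-rich word, TGTGTGTG, had 7 matches in Jag2 and 1 in Lfng and was absent from the other 8 genes, against 20.9% of all 3′ UTRs that hold it. A match is a description of the letters, and binding was not measured in these samples.

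Jag1 was elevated in Celf1cKO lenses, the receptors Notch1, Notch2 and Notch3 and the target Hes1 had lower values in every Celf1cKO library than in every control library, and Rbpj, Hey1, Lfng and Dll1 overlapped between the groups. A gene was called changed where its limma adjusted p was under 0.05, its log2 fold-change exceeded 0.58 in either direction, and its mean log2 CPM exceeded 1. By this rule 0 of the 10 genes were called, against 7.25% of all genes, and without the size limit 1 gene (Jag1) passed the adjusted p, against 11.9% of all genes. At an unadjusted p under 0.05 there were 5 of 10 genes, where 29.9% of all genes passed. The groups did not overlap for 2 genes that were higher (Jag1 and Jag2) and 4 that were lower in Celf1cKO lenses, where 19.5% and 17.0% of all genes did the same. For Notch1 and Notch2 this separation depended on the scaling, as given below with the other receptors. The median log2 fold-change was -0.22 over the 10 genes and -0.04 over all genes.

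With the replicate number as a block in the model, 3 genes were called, all reduced: Notch1, Notch3 and Hes1. The block called 9.01% of all genes, 5.35% as elevated and 3.66% as reduced. By adjusted p alone, Jag1 passed as higher with the block (9.41% of all genes) and the same 3 genes as lower (5.83%), for 4 of 10 against 15.2% in either direction. By limma voom on recovered reads, 2 of 10 were called (Notch3 and Hes1, both reduced, as were 2.81% of all genes). Without Celf1cKO replicate 1, whose Celf1 level was the highest of its group, 5 of 10 genes were called (Jag1 elevated, Notch1, Notch2, Notch3 and Hes1 reduced), where 7.36% of all genes were called elevated and 6.12% reduced. Without any single other library, 0 of the 10 were called, and 1 to 588 of all genes. Whether the remaining Celf1 in that pool bears on these values was not tested.

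**Figure D1:**
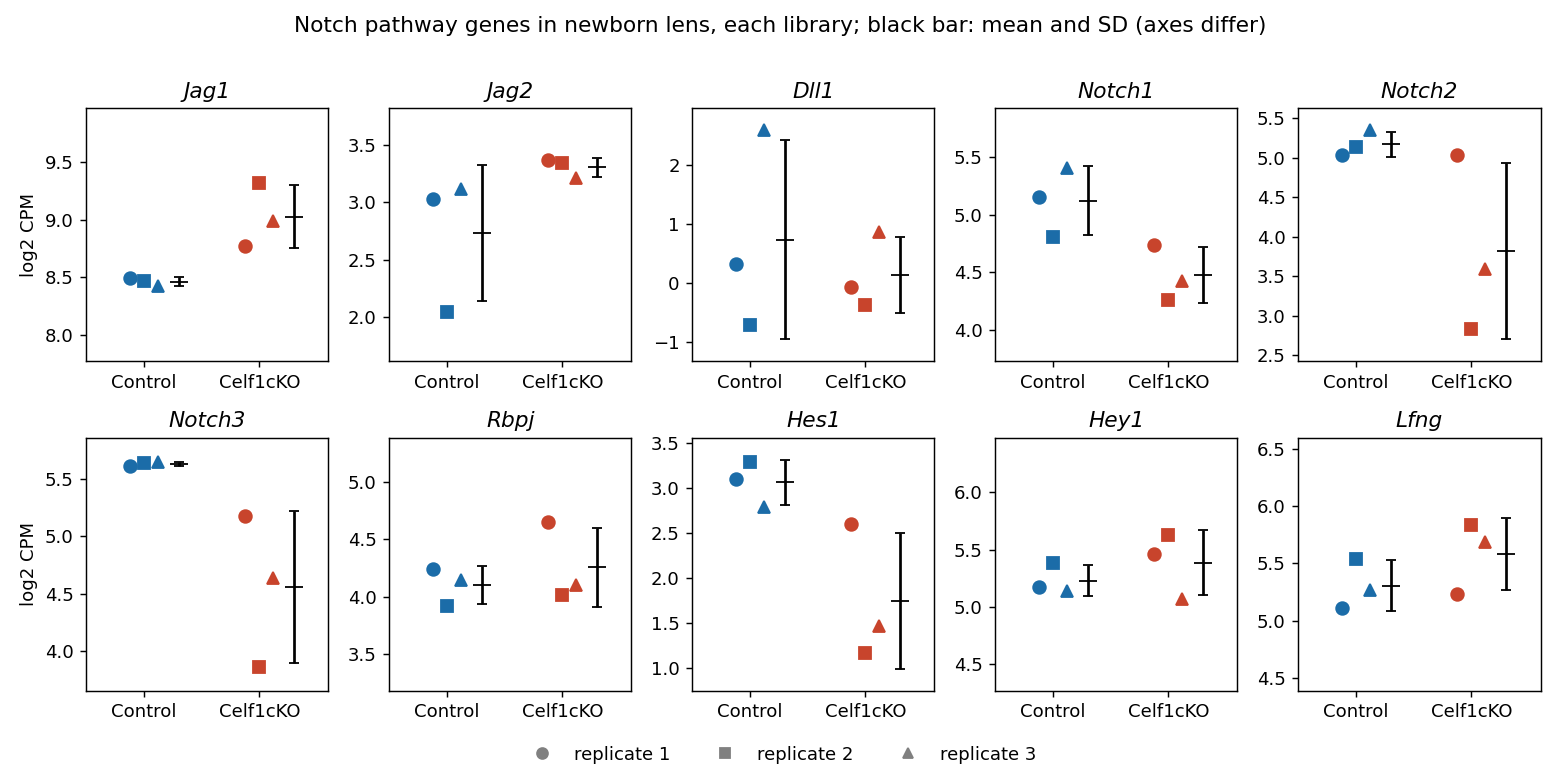
Levels of the 10 genes in each of the 6 libraries, in log2 CPM (vertical axis, a different range in each panel), for control (blue) and Celf1cKO (red) lenses. Marker shapes give the replicate number and black bars the mean and SD of 3 libraries. Jag1 lies higher in all 3 Celf1cKO libraries, and Notch1, Notch3 and Hes1 lie lower in all 3, with Celf1cKO replicate 1 nearest to the controls.

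Of the ligands, Jag1 was by far the most abundant. Jag1 (ENSMUSG00000027276, chr2:137081456-137116644, - strand) encodes the transmembrane ligand Jagged 1. It stood at 8.49, 8.46 and 8.42 log2 CPM in control replicates 1, 2 and 3, from 13807, 13125 and 13497 reads. In Celf1cKO replicates 1, 2 and 3 it was 8.77, 9.32 and 8.99 log2 CPM, from 18788, 30952 and 24959 reads. The controls lay within 0.04 of their mean (SD, n = 3), all 3 Celf1cKO libraries were higher, and replicate 2 was the highest. The elevation was 1.48-fold, from 8.46 ± 0.04 to 9.02 ± 0.27 log2 CPM (SD, n = 3; log2 fold-change 0.56, 95% interval 0.25 to 0.88, limma adjusted p = 0.0404, and 0.0370 with the block). It missed the call because the log2 fold-change was below 0.58, while the count test of the study, with the same limits, lists Jag1 as elevated. In single left-out libraries the log2 fold-change ranged from 0.42 without Celf1cKO replicate 2 to 0.69 without Celf1cKO replicate 1. The limma adjusted p then ranged from 0.00965 to 0.132 and was under 0.05 only without Celf1cKO replicate 1. Crystallin genes took 46.3% ± 0.58 of reads in control and 36.3% ± 1.96 in Celf1cKO lenses (SD, n = 3), and scaling by total reads, which makes no correction for such a shift, moved the median log2 fold-change of expressed genes to 0.23 and that of Jag1 to 0.79 (adjusted p = 0.0104, called), so relative to that median Jag1 stayed elevated by a like amount. In RNA from whole lenses, fewer cells of a type and less RNA per cell cannot be told apart, here and for every gene that follows.

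Jag2 (ENSMUSG00000002799, chr12:112907819-112929776, - strand), the second Jagged ligand, was low. It stood at 3.03, 2.05 and 3.12 log2 CPM in control replicates 1, 2 and 3 and at 3.37, 3.34 and 3.21 in the Celf1cKO replicates. The Celf1cKO values lay close together just above the highest control, and control replicate 2 stood apart below. The log2 fold-change of 0.57 did not pass the test (95% interval -0.09 to 1.24, limma adjusted p = 0.221), and it was 0.23 without control replicate 2.

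Dll1 (ENSMUSG00000014773, chr17:15367354-15376872, - strand), the ligand Delta-like 1, was near the lower limit of the table. Control replicates 1, 2 and 3 had 46, 21 and 236 reads, or 0.32, -0.71 and 2.59 log2 CPM. The Celf1cKO replicates had 39, 35 and 87 reads, or -0.07, -0.38 and 0.86 log2 CPM. Control replicate 3 was far above the other 5 libraries, and replicate 3 was also the highest of the Celf1cKO libraries. The log2 fold-change was -0.60 (95% interval -2.47 to 1.28, limma adjusted p = 0.656) and turned to 0.33 without control replicate 3. The summed level of 6 retina and neuron markers was highest in the same libraries, at 7.77, 2.19 and 20.8 CPM in control replicates 1, 2 and 3 and 6.01, 5.30 and 13.2 CPM in the Celf1cKO replicates. In this list 0 of 6 genes passed the adjusted p by limma (11.9% of all genes) and 1 had an unadjusted p under 0.05 (29.9%). With the block, 1 of the 6 passed the adjusted p as higher (9.41% of all genes). The part of these cells in the Dll1 values was not tested. A noncoding gene on the opposite strand covers 20.5% of the Dll1 exon length, and the strand setting of the counting is not given in the sources used here.

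The receptors shared a direction. Notch1, Notch2 and Notch3 are single-pass receptors of the same build, and Notch2 and Notch3 had the larger fold-changes and the wider spread among Celf1cKO libraries. Notch1 (ENSMUSG00000026923, chr2:26457903-26516663, - strand) stood at 5.16, 4.80 and 5.40 log2 CPM in control replicates 1, 2 and 3 and at 4.74, 4.26 and 4.42 in the Celf1cKO replicates. The highest Celf1cKO library lay just below the lowest control. The mean went from 5.12 ± 0.30 to 4.47 ± 0.24 log2 CPM (log2 fold-change -0.65, 95% interval -1.08 to -0.22, limma adjusted p = 0.0634), which missed the threshold, and with the replicate block Notch1 was called reduced (adjusted p = 0.0318).

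Notch3 (ENSMUSG00000038146, chr17:32120820-32166852, - strand) had the tightest controls, at 5.61, 5.64 and 5.65 log2 CPM. The Celf1cKO replicates 1, 2 and 3 stood at 5.18, 3.86 and 4.63, each below all controls and spread over more than 1 log2 unit among themselves. The log2 fold-change was -1.08, or 2.11-fold lower (95% interval -1.76 to -0.39, limma adjusted p = 0.0555), and with the block Notch3 was called reduced (adjusted p = 0.0381). It was also called with limma voom on reads recovered from the deposited values (adjusted p = 0.0471) and where only genes above 1 log2 CPM were tested (0.0472).

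Notch2 (ENSMUSG00000027878, chr3:98013527-98150361, + strand) stood at 5.04, 5.13 and 5.35 log2 CPM in controls. Celf1cKO replicate 1 was at 5.04, equal to the lowest control to 2 decimals, while replicates 2 and 3 were at 2.84 and 3.59, far below. The log2 fold-change of -1.35 was the largest in size of the 10 genes but did not pass the test with or without the block (95% interval -2.49 to -0.21, limma adjusted p = 0.113, and 0.0741 with the block). Without Celf1cKO replicate 1 it was -1.96 and was called (adjusted p = 0.00359). The summed level of the receptors, with Notch4, was 122, 118 and 139 CPM in control replicates 1, 2 and 3 and 100, 41.7 and 61.2 CPM in the Celf1cKO replicates, so the pool of receptor transcripts was lowest in Celf1cKO replicate 2. Genes on the opposite strand overlap 7.50% and 2.91% of the exon length of Notch1 and 6.03% of that of Notch3, and a gene on the same strand overlaps 5.02% of that of Notch2.

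Lfng (ENSMUSG00000029570, chr5:140607320-140615545, + strand) encodes Lunatic fringe, a glycosyltransferase that adds a sugar to Notch receptors in the Golgi and shifts their response between Delta and Jagged ligands. It stood at 5.11, 5.54 and 5.27 log2 CPM in control replicates 1, 2 and 3 and at 5.23, 5.83 and 5.69 in the Celf1cKO replicates. The groups overlapped, and replicate 2 was the highest in each. The log2 fold-change was 0.28 (95% interval -0.14 to 0.70, limma adjusted p = 0.334, and 0.0984 with the block).

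Rbpj (ENSMUSG00000039191, chr5:53466152-53657362, + strand), the DNA-binding partner of the Notch intracellular domain, stood at 4.24, 3.92 and 4.15 log2 CPM in control replicates 1, 2 and 3. It stood at 4.65, 4.02 and 4.11 in the Celf1cKO replicates, where only replicate 1 was above the controls. The log2 fold-change of 0.16 did not pass the test (95% interval -0.28 to 0.59, limma adjusted p = 0.617), and it was -0.04 without Celf1cKO replicate 1. The Rbpj recognition core TGGGAA was sought on both strands (TTCCCA on the reverse) from 250 bases before to 50 bases after the start of transcription in RefSeq promoters of GRCm38.p6. Of the 8 genes with a promoter there, Rbpj itself and Lfng held it, as did 25.6% of 32851 promoters of the genome. Hes1 and Hey1 had no promoter in this set, so theirs were not searched.

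Hes1 and Hey1, which encode repressors of the basic helix-loop-helix family that Notch activates, behaved differently from each other. Hes1 (ENSMUSG00000022528, chr16:30064384-30067796, + strand) stood at 3.11, 3.29 and 2.79 log2 CPM in control replicates 1, 2 and 3, from 328, 362 and 271 reads. The Celf1cKO replicates stood at 2.60, 1.17 and 1.47 log2 CPM, from 258, 107 and 134 reads, with replicate 1 just below the lowest control and replicates 2 and 3 well below it. The log2 fold-change was -1.32, or 2.49-fold lower (95% interval -2.18 to -0.46, limma adjusted p = 0.0599), and with the block Hes1 was called reduced (adjusted p = 0.0429). It was also called with limma voom on recovered reads (adjusted p = 0.0455).

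Hey1 (ENSMUSG00000040289, chr3:8663359-8667256, - strand) stood at 5.17, 5.38 and 5.14 log2 CPM in controls and at 5.46, 5.63 and 5.07 in Celf1cKO replicates 1, 2 and 3. The highest and the lowest value were both from Celf1cKO libraries. The log2 fold-change was 0.16 (95% interval -0.21 to 0.52, limma adjusted p = 0.533). Its interval and that of Hes1 did not meet, but the difference between these genes was not tested.

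**Figure D2:**
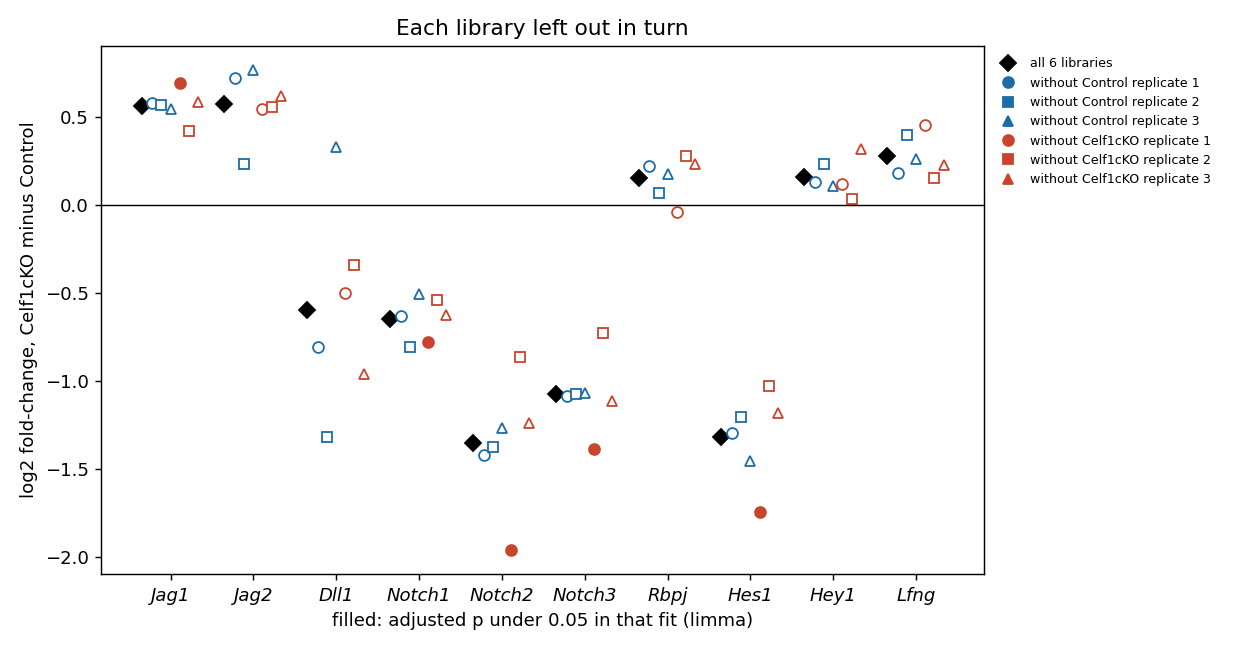
Log2 fold-change of each of the 10 genes (Celf1cKO minus control, vertical axis) with all 6 libraries (black diamonds) and with each library left out in turn (blue, a control left out; red, a Celf1cKO library left out). Filled colored markers passed an adjusted p under 0.05 in limma, which happened only without Celf1cKO replicate 1, for Jag1, Notch1, Notch2, Notch3 and Hes1.

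To compare levels between genes, CPM was divided by the length of the merged exons in kilobases (kb). Jag1 led in control lenses with 60.4 ± 1.52 CPM per kb (SD, n = 3), followed by Lfng with 15.9 ± 2.46, Hey1 with 11.5 ± 1.08 and Notch3 with 6.14 ± 0.073 CPM per kb. Below them came Hes1 with 4.14 ± 0.705, Notch2 with 3.36 ± 0.376, Notch1 with 2.48 ± 0.505, Rbpj with 1.35 ± 0.149, Jag2 with 1.0 ± 0.357 and Dll1 with 0.624 ± 0.704 CPM per kb. Jag1 was thus the most abundant ligand transcript and Notch3 the most abundant receptor transcript per length. Between neighbors in this order the control libraries overlapped for Hes1 and Notch2, for Rbpj and Jag2, and for Jag2 and Dll1, and were apart for the other pairs.

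In Celf1cKO lenses the order of the means was the same. Jag1 stood at 90.5 ± 17.4 CPM per kb, Lfng at 19.5 ± 3.99 and Hey1 at 13.0 ± 2.47, while Notch3 was at 3.11 ± 1.34, Hes1 at 1.81 ± 1.01, Notch2 at 1.61 ± 1.26 and Notch1 at 1.58 ± 0.271 CPM per kb. Rbpj stood at 1.53 ± 0.383, Jag2 at 1.42 ± 0.081 and Dll1 at 0.279 ± 0.132 CPM per kb. The ranges of Lfng and Hey1 overlapped, and from Notch3 down to Jag2 the ranges of neighbors overlapped. Within each Celf1cKO library Notch3 was the highest of these 6 genes (4.47, 1.80 and 3.07 CPM per kb in replicates 1, 2 and 3). The order of the rest, from Hes1 to Jag2, was not resolved. With the length of the longest transcript in place of the merged exons, Rbpj had 3.15 CPM per kb in control and 3.56 in Celf1cKO lenses, where its mean then ranked above those of Notch1, Notch2 and Notch3.

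**Figure D3:**
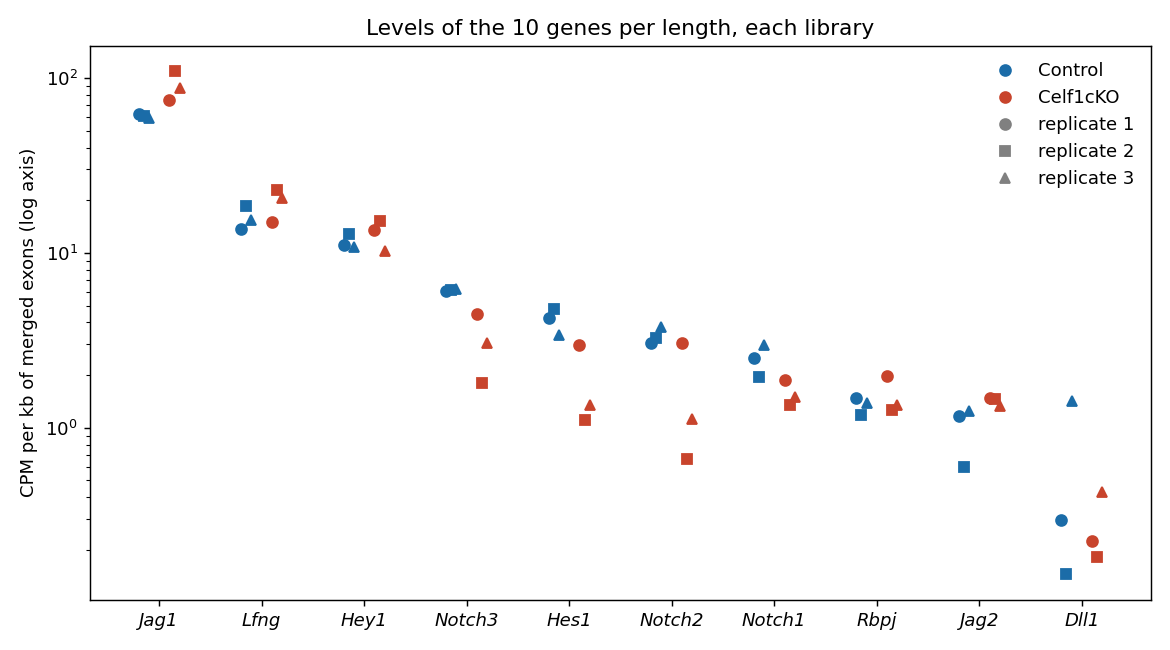
CPM per kb of merged exons (log axis) for the 10 genes in each control (blue) and Celf1cKO (red) library, ordered by the control mean, with marker shapes for the replicate number. Jag1 is highest in all 6 libraries, Lfng and Hey1 follow, and the receptors and Hes1 spread downward in Celf1cKO replicates 2 and 3.

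The rest of the pathway was taken from a list of 64 Notch genes, of which 61 were in the table and 50 had a mean above 1 log2 CPM. Of the 51 that are not among the 10 genes above, 2 were called elevated (Psen2 and Hes6) and 0 reduced, against 4.69% and 2.56% of all genes, while 13 had an unadjusted p under 0.05, a smaller share than the 29.9% of all genes. By adjusted p alone, 3 passed as higher (Psen2, Hes6 and Mib1) and 2 as lower (Pofut1 among them), where 7.85% and 4.03% of all genes did. The median log2 fold-change of these 51 genes was -0.17, and 37 of them lay below 0.

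Psen2, a catalytic subunit of the gamma-secretase that frees the Notch intracellular domain, was elevated from 3.42 ± 0.19 to 4.14 ± 0.18 log2 CPM (SD, n = 3; log2 fold-change 0.71, limma adjusted p = 0.0290, and 0.0408 with the block). Hes6, a Hes family member known to oppose Hes1, was elevated from 3.48 ± 0.10 to 4.11 ± 0.17 log2 CPM (log2 fold-change 0.63, adjusted p = 0.0288, and 0.0318 with the block). Mib1, the ubiquitin ligase that drives endocytosis of Notch ligands, went from 6.56 ± 0.18 to 7.11 ± 0.10 log2 CPM, and its log2 fold-change of 0.55 passed the limma adjusted p (0.0250) but not the size limit. Psen2 and Hes6 kept an adjusted p under 0.05 with a library left out only where it was Celf1cKO replicate 1, and reached 0.129 and 0.135 without Celf1cKO replicate 3.

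Pofut1, which adds the O-linked fucose on which fringe enzymes act, went from 5.28 ± 0.07 to 4.75 ± 0.06 log2 CPM (log2 fold-change -0.53, limma adjusted p = 0.0162). Psen2, Hes6, Mib1 and Pofut1 did not overlap between the groups, as was so for 36.5% of all genes. They were named for their adjusted p, so this separation adds nothing to the test. With a library left out, the limma adjusted p of Mib1 reached 0.114 and that of Pofut1 0.0954. Both passed only without Celf1cKO replicate 1 or without control replicate 1 (0.0435 for Mib1 and 0.0426 for Pofut1 in the latter).

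Of the receptors, 4 of 4 (Notch4 included) had lower values in every Celf1cKO library, and the median of their log2 fold-changes was -1.12, where 17.0% of all genes were lower in every library. In reads, Celf1cKO replicate 1 was above the lowest control for Notch1 (1143 against 1037), Notch2 (1407 against 1257) and Notch4 (197 against 182). It was below for Notch3 (1551 against 1850). Its total of 40700236 reads was close to or below those of these controls. The separation of Notch1, Notch2 and Notch4 thus depended on the scaling. Of these 4, 0 passed the adjusted p by limma, 3 had an unadjusted p under 0.05 (29.9% of all genes), and 2 were called reduced with the block (3.66%). Notch4, a receptor known from endothelium, stood at 2.26, 2.34 and 2.46 log2 CPM in control replicates 1, 2 and 3 and at 2.21, -0.17 and 1.55 in the Celf1cKO replicates (log2 fold-change -1.15, limma adjusted p = 0.205). Of 8 genes listed as targets, 1 was called elevated (4.69% of all genes), and with the block Hes1 and Heyl were called reduced (3.66%). The 1 elevated gene was Hes6, known to oppose Hes1, and whether Notch drives Hes6 in lens was not tested. Heyl, a Hey family repressor known from vascular smooth muscle, stood at 1.92, 2.0 and 2.47 log2 CPM in controls and at 1.42, -0.55 and 0.22 in Celf1cKO replicates (log2 fold-change -1.76, adjusted p = 0.0560, and 0.0443 with the block). Ligase and endocytic genes (13), receptor proteases (10) and nuclear complex genes (12, Rbpj included) had medians of -0.14, -0.13 and -0.06, with 1, 1 and 1 genes past the adjusted p, as were 11.9% of all genes. Eogt (log2 fold-change -0.73, adjusted p = 0.400), Aph1b (-0.53, 0.258) and Maml1 (-0.48, 0.297), chosen by their size of change, did not pass.

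**Figure D4:**
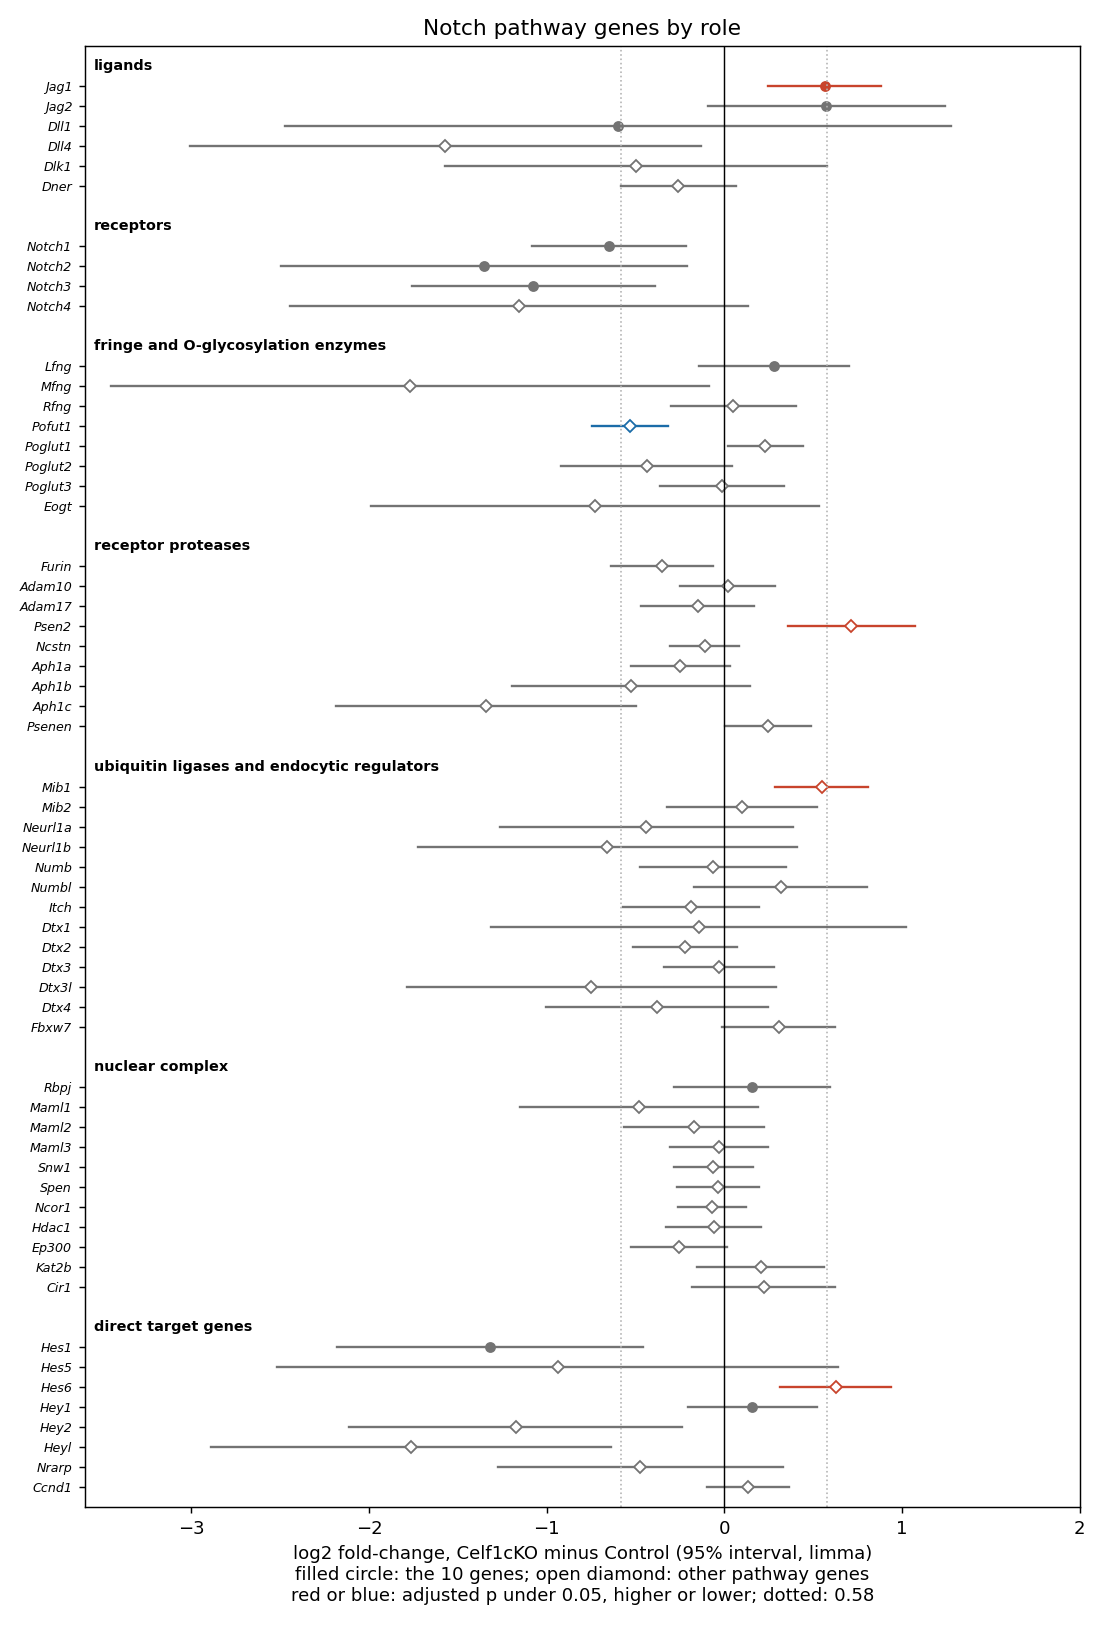
Log2 fold-change (Celf1cKO minus control, horizontal axis) with 95% limma intervals for 59 of the 61 Notch pathway genes in the table, grouped by role. Filled circles are the 10 genes and open diamonds the others, red and blue mark an adjusted p under 0.05 for higher and lower values, and dotted lines mark 0.58. All receptor values lie below 0, and Jag1, Psen2, Mib1 and Hes6 are the genes that passed as higher.

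The vessels that surround the newborn lens also express Notch receptors, and the summed level of 8 endothelial markers was 114, 93.3 and 101 CPM in control replicates 1, 2 and 3 and 111, 22.9 and 52.2 CPM in Celf1cKO replicates 1, 2 and 3. The sum of 6 pericyte and smooth muscle markers was 94.2, 70.9 and 93.2 CPM in controls and 70.9, 25.9 and 48.9 CPM in Celf1cKO lenses. Of these 6, the pericyte marker Rgs5 had the highest CPM in controls, with a log2 fold-change of -1.75 (limma adjusted p = 0.175), while the smooth muscle gene Acta2 had 0.56 (0.184) and its highest value in Celf1cKO replicate 2, and Myh11 had 0.08 (0.879). In both lists 0 genes passed the adjusted p by limma, which 11.9% of all genes did. An unadjusted p under 0.05 was found for 1 of 8 and 2 of 6 (29.9% of all genes). The medians of their log2 fold-changes were -1.21 and -1.19. With the block, 0 of the 8 and 2 of the 6 passed the adjusted p as lower (5.83% of all genes). By the call rule with the block, 1 of the 6 was called reduced (3.66%). None of the 14 markers was at 0 reads in any library, the lowest being Kcnj8 at -3.50 log2 CPM (2 reads) in Celf1cKO replicate 2. That library was the lowest in both sums, as it was for Notch1, Notch2, Notch3, Notch4, Hes1 and Heyl. It was also the lowest for Celf1 and for the sum of lens epithelial markers given next.

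Lens epithelial markers, which mark the cells where Notch receptors are known to be expressed in lens, also had lower sums in Celf1cKO lenses. Their summed level (7 genes) was 977, 1116 and 975 CPM in controls and 784, 517 and 623 CPM in Celf1cKO replicates 1, 2 and 3, and 3 of 7 passed the adjusted p as lower, where 4.03% of all genes did. Foxe3, the transcription factor that defines lens epithelium, stood at 4.88, 5.06 and 4.91 log2 CPM in controls and 3.41, 1.63 and 3.77 in Celf1cKO lenses (log2 fold-change -2.01, limma adjusted p = 0.0434). Wnt7b, with the highest CPM of the 7 in every library (log2 fold-change -0.47, limma adjusted p = 0.0310), and Pdgfra (-1.54, 0.0497) also passed. Pax6 (-0.37, 0.213), Cdh1 (-1.34, 0.148), Npnt (-1.13, 0.113) and Mab21l1 (-0.96, 0.0642) did not pass. The sum of 7 lens fiber markers was 101908 to 125083 CPM in controls and 82475 to 89992 CPM in Celf1cKO lenses. Cryba1 had the highest CPM of the 7 in every library, with a log2 fold-change of -0.32 (limma adjusted p = 0.475). Of the 7, 3 passed as lower (Bfsp1, Dnase2b and Gja3, against 4.03% of all genes), and all 3 were called (2.56%). Mip (-0.37, adjusted p = 0.187), Prox1 (-0.02, 0.921) and Bfsp2 (0.20, 0.878) did not pass. Both Celf1cKO replicates 2 and 3 lay more than 1 log2 unit below every control for 2 of the 10 genes (Notch2 and Hes1), 4 of 7 epithelial markers, 3 of 7 fiber markers, 1 of 8 endothelial markers and 0 of 6 pericyte and smooth muscle markers, against 2.89% of all genes. This measure and the marker genes named were chosen after the values were seen. The macrophage, retina and pigment epithelium sums had their lowest values in control replicate 2. The part of epithelial, fiber, endothelial and mural cells in the receptor and Hes1 values was not tested.

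**Figure D5:**
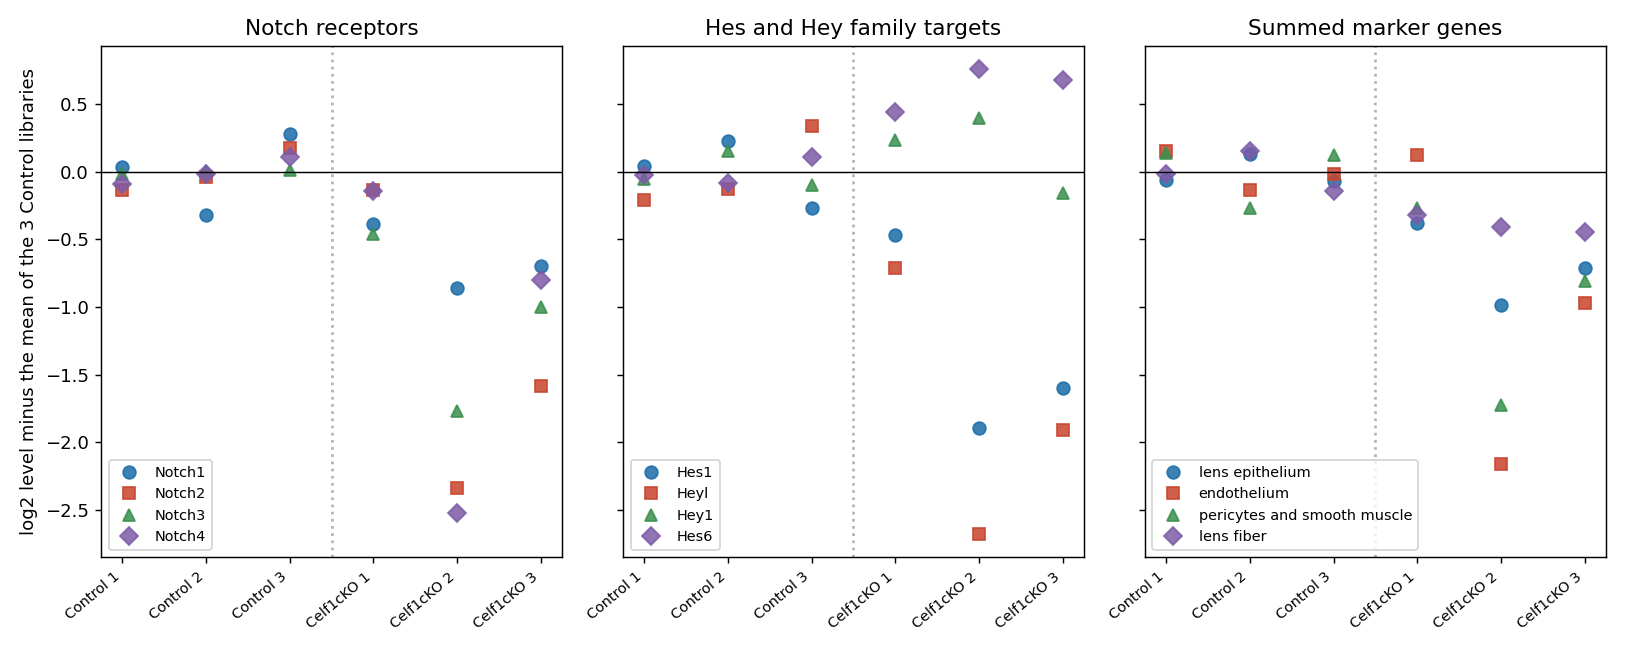
Log2 level in each library minus the mean of the 3 control libraries (vertical axis) for the 4 Notch receptors, for 4 Hes and Hey family genes, and for the summed markers of 4 cell types. In Celf1cKO replicate 1, Notch2, Notch4 and the endothelial sum stay near the controls, Notch1 lies just below its lowest control, and Notch3 lies clearly below. In Celf1cKO replicates 2 and 3 all of these lie below, while Hes6 lies above in all 3.

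The genes whose profile over the 6 libraries was most like that of Jag1, by the root mean square distance between log2 CPM centered on the mean of each gene among 10528 other expressed genes, were Them4 (0.0329), Polr1d (0.0464) and Bicd1 (0.0488). Those most like Hes1 were Plekha4 (0.0813), Fam167a (0.0935) and Tmem51 (0.110). Like Jag1, Them4 rested near its control level of 3.20 log2 CPM in all controls and was highest in Celf1cKO replicate 2 with 4.12. Plekha4 followed Hes1 with 2.28, 0.76 and 1.12 log2 CPM in Celf1cKO replicates 1, 2 and 3, against a control mean of 2.65.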

How the data were processed

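Lens RNA from P0 mice was sequenced by the authors as strand-specific paired-end libraries, aligned to GRCm38.p6 with STAR 2.7.8a and counted per gene with featureCounts 2.0.0. Genes above 0.2 CPM were kept. The deposited values are log2 CPM, which the authors computed with edgeR and a composition correction. All values of each library were whole reads times a constant (100% within 0.05 of a read), so read numbers were recovered. The authors' columns of their own comparison (fold-change, average level, p-values) were not used.

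Each gene was fitted with limma 3.58.1 (R 4.3.3, trend) on the deposited log2 CPM of 3 control and 3 Celf1cKO libraries, with Benjamini-Hochberg adjustment over 13931 genes. The script was tested on simulated data. This took the place of the count test of the study, because the file holds no counts. A gene was called at adjusted p under 0.05, log2 fold-change beyond 0.58 and mean log2 CPM above 1. Same-numbered control and Celf1cKO libraries deviated together (correlations across genes of 0.26, 0.39 and 0.38), so the fit with the replicate number as a block is given where it changed a call. Other settings were log2(CPM + 1), other scalings, limma voom on recovered reads, no variance trend, a stricter filter, and each library left out.

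The 10 genes and all lists were chosen with earlier results of these data known. Named beside them were pathway genes with adjusted p under 0.05, then those above 1 log2 CPM with the largest change up to 10, and the 3 genes nearest in profile to Jag1 and to Hes1. Some genes are not reported here. Intervals of read numbers are not given. Among the 10 genes counting error was small except for Dll1. It was larger for low genes such as Notch4, Heyl, Dll4, Mfng, Hes5 and the marker Kcnj8. These had 41, 31, 18, 11, 25 and 2 reads in Celf1cKO replicate 2. Figures were drawn with matplotlib 3.10.9 (Python 3.11.15).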

Additional observations from a re-analysis of the deposited data

How the results depend on the processing

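Directions were stable for 8 of the 10 genes under every setting tried, the exceptions being Dll1 (-1.32 to 0.33 with each library left out, the latter without control replicate 3) and Rbpj (-0.041 to 0.28, the former without Celf1cKO replicate 1). The number of the 10 genes called, 0 by the main rule, was 3 with the replicate block, 2 with voom on recovered reads, 1 (of the 9 tested) with only genes above 1 log2 CPM, 1 with scaling by total reads, and 0 to 5 with each library left out. Of the 61 pathway genes 2 were called, against 6 with the block, 5 with voom, 4 (of the 50 tested) with only genes above 1, 4 with scaling by total reads, 0 without the variance trend, and 0 to 10 with each library left out. Of all genes 1010 were called, against 1846 with scaling by total reads, 412 without the variance trend and 1 to 1878 with each library left out, with 1 gene without control replicate 2 or without Celf1cKO replicate 3. The share of calls that were elevated was 64.8%, 89.4% with scaling by total reads and 54.6% without Celf1cKO replicate 1. The block changed no call of a named gene beside those of Notch1, Notch3, Hes1 and Heyl. Celf1 stayed at -1.60 without the variance trend (adjusted p = 0.0693) and between -1.99 and -1.36 with a library left out (adjusted p up to 0.108). Jag1 lost its adjusted p under 0.05 without the variance trend and without each library other than Celf1cKO replicate 1. A fit with 2 libraries in a group assumes that they vary like the other group. The cause of these shifts was not tested. With 3 pools per group, differences of the size of those of Lfng, Hey1 and Rbpj could not be told from no difference, and Dll1 rests on as few as 21 reads.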

Other observations

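A few further pathway genes, picked after their values were seen for being low in Celf1cKO replicates 2 and 3, are given as values. Dll4, a ligand known from endothelial tip cells, stood at 1.73, 1.70 and 1.70 log2 CPM in control replicates 1, 2 and 3 and at 1.46, -1.26 and 0.22 in Celf1cKO replicates 1, 2 and 3 (log2 fold-change -1.57, limma adjusted p = 0.137). Mfng, the Manic fringe glycosyltransferase, stood at 1.44, 1.26 and 1.90 log2 CPM in controls and 1.28, -1.87 and -0.12 in Celf1cKO lenses (log2 fold-change -1.77, adjusted p = 0.149). Hes5, a target best known from neural progenitors, stood at 0.87, 1.06 and 0.95 log2 CPM in controls and 1.75, -0.83 and -0.85 in Celf1cKO lenses, so that Celf1cKO replicate 1 was the highest library and replicates 2 and 3 the lowest. None of the 3 passed the limma adjusted p with all 6 libraries. In Celf1cKO replicate 2 Dll4, Mfng and Hes5 rest on 18, 11 and 25 reads.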
